A study of Mus musculus with 18 samples.

Results

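Open chromatin on mouse chromosome 13 was described from 1904 peaks of 500 bp, all the peaks placed on that chromosome among the 61224 of the larger of 2 deposited count tables (3.11%). The peaks were chosen by chromosome alone, but the chromosome was singled out because its counts were already known to be low in the lymphomas of this series. The differences between lymphomas and normal cells are therefore given as a description: edgeR calls in those contrasts are only counted or used to name genes, beside the share called over all peaks or genes, and p-values are given only between the normal groups. The measurement was ATAC-seq, in which a transposase cuts accessible DNA, so that the read count in a peak reflects how open, and how abundant, that stretch of DNA was in the sorted cells. All 18 libraries came from C57BL/6 mice, each from 10000 sorted cells.

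The 9 mPTCL libraries (murine peripheral T-cell lymphoma) come from tumours that grew out of p53KO T cells given to CD3KO recipients of the same strain, and the cells were sorted from liver with no gate stated. The 3 NK libraries are WT splenic NK cells with a CD27- CD11b+ gate. The 3 NKT libraries are WT cells sorted as CD3+ and binding a CD1d tetramer loaded with alpha Gal Cer; the labels give liver as their tissue, while their titles carry Sp. The 3 T libraries are WT spleen CD3+ thy1+ cells. A p53KO library from non-lymphoma T cells was not analysed here, so genotype, disease, host, sort gate and, for NK and T, organ differ together between the lymphomas and the normal groups and cannot be told apart. The recipients lack CD3, and their own non-T cells remain in the liver. The labels do not say whether libraries of a normal group came from separate mice, and p-values then measure only the spread between these samples, which may be technical.

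Counts summed over a whole chromosome depend on how much of its DNA is present and on how open that DNA is, while the count of a single peak also follows the activity of the promoter or enhancer under it. The number of DNA copies was not measured. The chromosome carries the granzyme genes Gzma and Gzmk, the integrin genes Itga1 and Itga2, the kinase gene Syk, the transcription factor genes Irf4, Mef2c, Nfil3 and Klf6, a T-cell receptor gamma locus, the largest histone gene cluster and clustered zinc finger genes. In these bulk libraries, a smaller number of cells with an open site and a lower signal per cell cannot be told apart.

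The promoters of 6 genes that the results turn on are shown as the 250 bases upstream of the start in RefSeq (GRCm38.p6), 5′ to 3′ on the gene's strand. They were chosen by values summed over all peaks of a gene, not by the promoter peaks alone. In the lymphomas Pde8b was higher than in all 3 normal groups and Gzma and Gzmk were higher than in NKT and T. Cdk20, Klf6 and Rasa1 were lower than in all 3. Capitals mark exact matches on either strand to CCGGAA, the core bound by ETS factors, TGTGGT, the core bound by RUNX factors, or AGGTGT, a T-box core.
Gzma: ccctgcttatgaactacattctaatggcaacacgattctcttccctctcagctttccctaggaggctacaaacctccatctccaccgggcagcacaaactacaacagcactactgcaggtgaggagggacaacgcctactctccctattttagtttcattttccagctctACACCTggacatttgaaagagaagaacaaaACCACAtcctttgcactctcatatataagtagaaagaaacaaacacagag
Gzmk: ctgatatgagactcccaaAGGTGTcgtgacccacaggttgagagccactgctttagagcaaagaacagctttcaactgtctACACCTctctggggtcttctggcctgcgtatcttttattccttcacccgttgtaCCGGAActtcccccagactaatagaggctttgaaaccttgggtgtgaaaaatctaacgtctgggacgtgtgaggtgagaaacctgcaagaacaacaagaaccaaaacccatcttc
Pde8b: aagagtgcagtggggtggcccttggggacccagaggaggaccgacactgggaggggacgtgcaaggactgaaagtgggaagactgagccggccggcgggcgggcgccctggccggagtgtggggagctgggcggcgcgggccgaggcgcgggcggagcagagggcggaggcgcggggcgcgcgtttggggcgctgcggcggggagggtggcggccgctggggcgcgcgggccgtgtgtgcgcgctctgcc
Cdk20: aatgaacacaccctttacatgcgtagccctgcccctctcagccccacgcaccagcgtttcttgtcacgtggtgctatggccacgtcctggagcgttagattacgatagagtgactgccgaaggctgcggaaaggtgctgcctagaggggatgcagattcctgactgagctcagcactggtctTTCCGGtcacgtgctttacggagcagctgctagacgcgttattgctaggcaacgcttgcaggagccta
Klf6: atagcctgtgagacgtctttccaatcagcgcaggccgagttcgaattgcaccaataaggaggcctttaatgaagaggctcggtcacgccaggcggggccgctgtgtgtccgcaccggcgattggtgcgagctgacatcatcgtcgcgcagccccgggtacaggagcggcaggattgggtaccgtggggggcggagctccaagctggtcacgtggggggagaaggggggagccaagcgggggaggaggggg
Rasa1: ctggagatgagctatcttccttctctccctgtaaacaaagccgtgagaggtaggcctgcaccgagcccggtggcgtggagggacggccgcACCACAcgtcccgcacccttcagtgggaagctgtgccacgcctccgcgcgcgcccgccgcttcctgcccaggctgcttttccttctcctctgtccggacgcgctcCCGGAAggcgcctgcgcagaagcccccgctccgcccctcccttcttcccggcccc
Gzmk held 1 ETS and 2 T-box matches, Gzma 1 RUNX and 1 T-box match, Rasa1 1 ETS and 1 RUNX match, and Cdk20 1 ETS match. Pde8b, with 77.6% G and C, and Klf6, with 64.8%, held none of the 3 words. Among 32851 RefSeq promoters of this length, 12% held the ETS word, 14% the RUNX word and 11.8% the T-box word. Among the 463 chromosome 13 promoters that lay at a peak given the same symbol, the shares were 28.1%, 11.4% and 7.13%. The first set was not limited to promoters at a peak, so the 2 sets do not show a trait of chromosome 13. The match is of letters and does not show binding. The stretches lie on the minus strand for Gzma (chr13:113100982-113101231), Gzmk (chr13:113180966-113181215), Pde8b (chr13:95223051-95223300) and Rasa1 (chr13:85289487-85289736). They lie on the plus strand for Cdk20 (chr13:64432303-64432552) and Klf6 (chr13:5861239-5861488), and each overlaps a promoter peak of its gene. The overlapped Gzma peak differed in the lymphomas by a log2 value of only 0.57 ± 0.47 (SE) from NKT and 0.97 ± 0.53 from T. Another Gzma promoter peak, at chr13:113101794-113102294 and outside the printed stretch, differed by 2.63 ± 0.60 from NKT and 1.37 ± 0.59 from T. The overlapped Pde8b peak differed by 2.88 ± 0.93 from NKT, 1.05 ± 0.89 from T and 2.02 ± 1.18 from NK.

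Of the 1904 peaks, 688 were at promoters (36.1%, against 32.6% of all peaks), 531 were intronic (27.9% against 31.7%), 376 intergenic (19.7% against 15.7%), 163 flanked a gene, 76 were exonic, 47 lay in a 3' UTR and 23 in a 5' UTR, by the deposited annotation. The peaks carried 787 of the 20344 gene symbols in the table. A total of 376 peaks had no symbol and 209 had more than one, so that neighbouring genes can share counts. The median peak had a mean of 27.9 counts per library, against 24.4 over all peaks, and 5.21% of the peak-library values were 0.

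Total counts in peaks ranged from 670358 to 4844441 in the lymphomas, from 417107 to 596601 in NK, from 1433904 to 9097014 in NKT and from 979441 to 2358023 in T libraries. The median chromosome 13 peak held 6 to 59 counts in a lymphoma library and 4 to 7 in an NK library. Replicates of every group differed by more than counting noise. Markers of T cells were detected for 11 of 11 genes, with summed levels of 534 to 844 CPM (counts scaled by TMM to the same library size) in the lymphomas, 519 to 748 in NK, 1191 to 1304 in NKT and 894 to 1008 in T libraries. Peaks at 4 of 7 B-cell markers summed to 118 to 229 CPM in the lymphomas, 121 to 176 in NK, 42.9 to 53.1 in NKT and 64.2 to 83.1 in T libraries. Myeloid and Kupffer markers, with 5 of 10 measured, summed to 101 to 144, 103 to 160, 54.1 to 67.0 and 59.7 to 69.9 CPM in mPTCL, NK, NKT and T. Hepatocyte markers (3 of 8 measured) summed to 31.0 to 86.8, 28.7 to 68.0, 20.1 to 23.6 and 22.6 to 35.0 CPM in the same order, endothelial and stromal markers (5 of 8) to 142 to 238, 136 to 261, 99.0 to 116 and 140 to 180, and erythroid markers (4 of 7) to 45.0 to 78.1, 32.3 to 41.0, 38.9 to 51.8 and 30.7 to 62.2. NK markers (7 of 8) summed to 215 to 397, 273 to 343, 137 to 148 and 61.5 to 124 CPM, and NKT markers (5 of 5) to 287 to 406, 396 to 461, 733 to 802 and 412 to 456. No marker with a peak was at 0 in any group, and the part of other cells in the results was not tested.

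Chromosome 13 held a smaller share of the counts in every lymphoma than in any normal library. Lymphomas 1 to 9, numbered in accession order, had 3.01%, 3.04%, 3.01%, 2.65%, 2.16%, 1.97%, 3.07%, 2.98% and 2.14%. The NK libraries had 3.64%, 3.85% and 3.97%, the NKT libraries 3.82%, 3.79% and 3.96%, and the T libraries 4.07%, 4.22% and 3.89%. Exact (Clopper-Pearson) 95% intervals cover counting error only. They ran from 2.94% to 3.02% in the shallowest lymphoma, mPTCL 8, and from 3.58% to 3.70% in the lowest normal library, NK 1.

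The mean was 2.67% ± 0.456 in the lymphomas (SD, n = 9) and 3.91% ± 0.168 over the 9 normal libraries, a log2 ratio of -0.55. The lymphomas were not evenly spread. In order of share, mPTCL 6 lay 0.166 percentage points below mPTCL 9, and mPTCL 9 lay 0.0230 points below mPTCL 5. A gap of 0.490 points then separated mPTCL 5 from mPTCL 4, and a further gap of 0.332 points separated mPTCL 4 from mPTCL 8. No gap among mPTCL 8, 1, 3, 2 and 7 was above 0.0317 points. The 3 lowest lymphomas held 50.3%, 54.6% and 55.2% of the normal mean, mPTCL 4 held 67.7%, and the others 76.2% to 78.4%. These levels are read off the same shares, and no test of their number was made. In the smaller of the 2 tables mPTCL 6, 9 and 5 were again lowest, at log2 ratios of -0.92, -0.80 and -0.79. There mPTCL 4 was at -0.53, and mPTCL 3, 1, 8, 7 and 2 were less close together, at -0.40, -0.33, -0.33, -0.31 and -0.21.

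**Figure D1:**
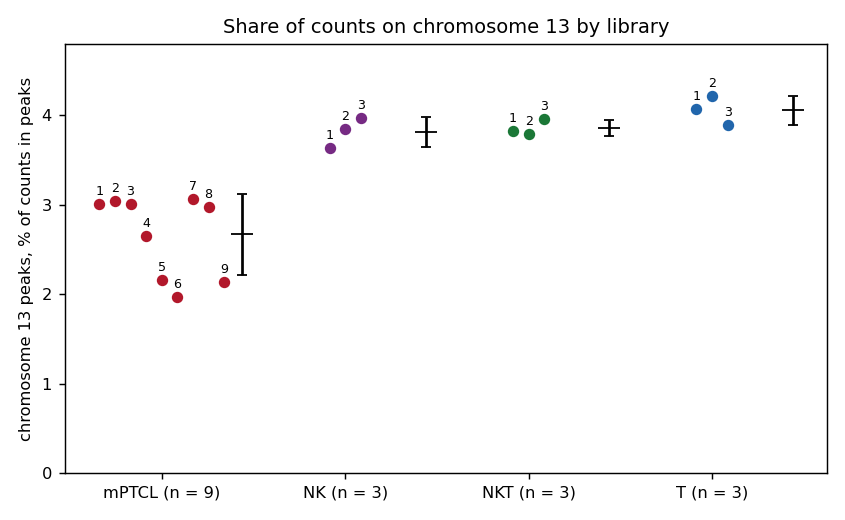
Share of all counts in peaks that fell on chromosome 13 (y axis, percent, from 0) for each library, numbered by replicate, with the group mean ± SD at the right of each group. All 9 mPTCL libraries lie between 1.97% and 3.07%, below the 9 normal libraries at 3.64% to 4.22%.

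Between normal groups the share was not shown to differ. NK averaged 3.82% ± 0.167 and NKT 3.86% ± 0.0899 (SD, n = 3 each), a difference of -0.0389 points (two-sided exact permutation p = 0.9, adjusted over 3 comparisons 0.9). T averaged 4.06% ± 0.162, and NK differed from it by -0.242 points (exact permutation p = 0.2, adjusted 0.3). NKT differed from T by -0.203 points (exact permutation p = 0.2, adjusted 0.3). With 3 against 3 libraries the smallest possible p is 0.1. In the smaller peak table the NK share was 0.180 points above that of NKT (exact permutation p = 0.3).

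Other chromosomes also had low shares in the lymphomas. All 9 lymphomas were below every normal library on chromosomes 2, 10, 13 and 16, and 8 of 9 were on chromosomes 1, 6, 7 and 18. Among the 19 chromosomes, chromosome 13 had the lowest ratio to the normal mean in mPTCL 5 and mPTCL 6 (-0.86 and -0.99), the second lowest in mPTCL 4, 8 and 9, and ranked 3, 4, 5 and 9 from the lowest in mPTCL 7, 3, 1 and 2. Chromosome 16 was lower than chromosome 13 in mPTCL 9, at -1.03 against -0.87. Chromosome 16 was at -0.48 in mPTCL 6, the lymphoma with the lowest chromosome 13 share. The lymphoma medians were -0.39 for chromosome 13, -0.47 for chromosome 16 and -0.40 for chromosome 10, and the lowest values were -0.99, -1.03 and -0.62. Chromosome 18 had a lymphoma median of -0.40. It was lower than chromosome 13 in mPTCL 2, 3 and 4, at -0.593, -0.495 and -0.578. Shares are relative to all counts of a library, and chromosome 15 was at 0.52 to 1.24 in the lymphomas.

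The lower level ran along the whole chromosome. Summed CPM in 5-Mb bins was set against the mean of the normal libraries, in the 23 of 25 bins that had at least 20 peaks. The lymphoma median was below 0 in all 23, from -1.42 at 65 to 70 Mb to -0.31 at 110 to 115 Mb. In 10 bins all 9 lymphomas were below every normal library. A lymphoma exceeded the normal mean in 2 bins: mPTCL 7 at 50 to 55 Mb (0.03), and mPTCL 1 (0.21) and mPTCL 2 (0.01) at 110 to 115 Mb. mPTCL 5, 6 and 9 were below every normal library in 23 of 23 bins. The count was 21 for mPTCL 4, 18 for mPTCL 2, 15 for mPTCL 7 and 8, 14 for mPTCL 3 and 12 for mPTCL 1.

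**Figure D2:**
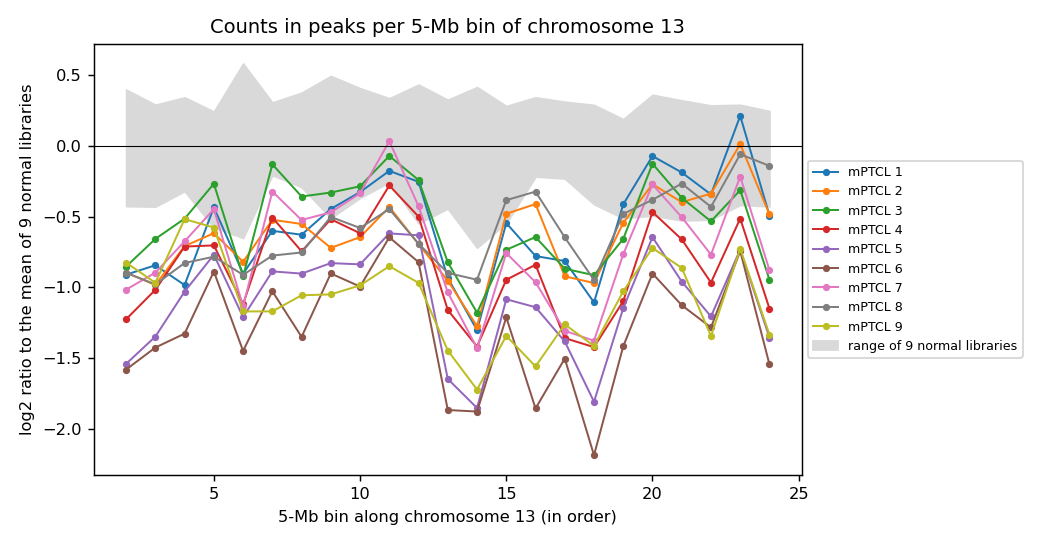
Log2 ratio of summed CPM to the mean of the 9 normal libraries (y axis) in 23 consecutive 5-Mb bins of chromosome 13 (x axis, bin number), 1 line per lymphoma, with the range of the normal libraries in grey. The lymphoma median is below 0 in every bin and lowest, at -1.42, in bin 14.

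The profile was not flat. Bins 13 and 14, from 60 to 70 Mb, had lymphoma medians of -1.04 and -1.42, and bins 17 and 18, from 80 to 90 Mb, -1.26 and -1.38. The medians of the bins at 95 to 100 and 110 to 115 Mb were -0.38 and -0.31. The normal libraries ran from -0.72 to 0.41 in bin 14 and from -0.65 to 0.58 in bin 6. In bin 14 the lymphomas 1 to 9 were at -1.30, -1.27, -1.18, -1.42, -1.85, -1.88, -1.43, -0.95 and -1.72, all below every normal library.

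With the median of the 9 lymphomas taken off each bin, some lymphomas stayed low or high along most of the chromosome, while others changed with position. mPTCL 6 was below the lymphoma median in 23 of 23 bins, mPTCL 5 in 22, mPTCL 9 in 18 and mPTCL 4 in 13. mPTCL 3 was below it in 0 bins, mPTCL 1 in 1, and mPTCL 2, 7 and 8 in 4, 5 and 6. Over segments chosen after the values were seen, mPTCL 9 was at 0.06 in the 4 bins up to 25 Mb, and at -0.39 and -0.36 in the 12 bins from 25 to 85 Mb and the 7 beyond. mPTCL 6 was at -0.53, -0.41 and -0.60, and mPTCL 5 at -0.34, -0.25 and -0.42, over the same segments. mPTCL 8, with the fewest counts, was at -0.06, 0.09 and 0.29, and reached 0.80 in bin 24.

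**Figure D3:**
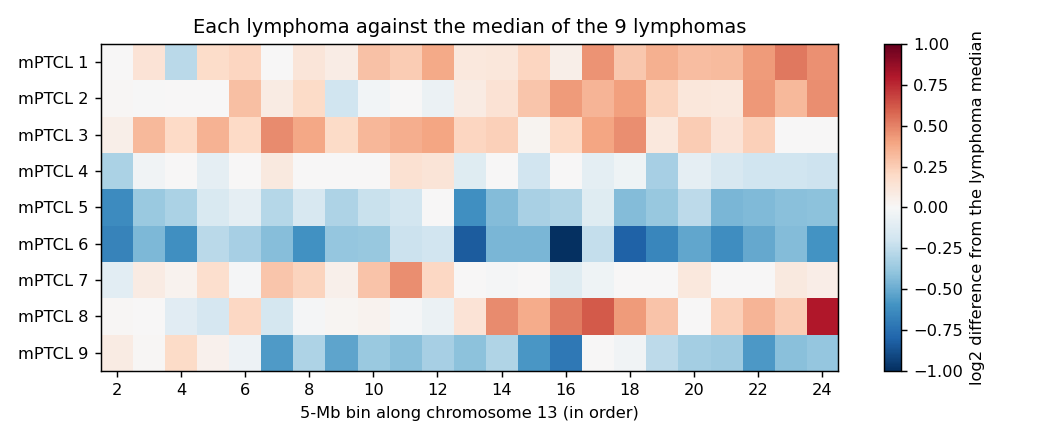
Log2 difference of each lymphoma (rows) from the median of the 9 lymphomas in 23 consecutive 5-Mb bins (columns, bin number), on a colour scale that ends at -1 and 1. mPTCL 6 is below the median in all 23 bins and mPTCL 5 in 22, while mPTCL 9 is at 0.01 to 0.19 in bins 2 to 5 and below the median in 18 bins.

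The lower share was seen in each class of peak. Of all promoter counts, chromosome 13 held 2.77% ± 0.458 in lymphomas and 4.06% ± 0.227 in normal cells (SD, n = 9 each), a log2 ratio of -0.55. The ratio was -0.55 for intronic, -0.51 for intergenic, -0.45 for flanking, -0.71 for exonic, -0.59 for 3' UTR and -0.41 for 5' UTR peaks. In each class all 9 lymphomas were below every normal library, other than 5' UTR peaks, where 8 were.

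It was also seen at every level of signal. Among peaks on other chromosomes, the lymphoma-minus-normal median of log2 CPM was 1.26 in the weakest of 10 equal classes of peaks by mean level and -0.45 in the strongest. On chromosome 13 it was 0.69 in the weakest and -0.94 in the strongest, and the gap between chromosome 13 and the rest stayed between -0.46 and -0.61 in all 10 classes. Matched on level, the median chromosome 13 peak stood at -0.97 to -0.27 in single lymphomas and at -0.14 to 0.09 in normal libraries. It was at -0.97, -0.89 and -0.81 in mPTCL 6, 9 and 5 and at -0.52 in mPTCL 4. In mPTCL 8, 1, 2, 7 and 3 it was at -0.44, -0.39, -0.31, -0.29 and -0.27.

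Peak by peak, 741 of 1904 peaks were lower and 200 higher in mPTCL than in NKT at an adjusted p under 0.05 by edgeR, against 19.4% lower and 23.2% higher over all peaks. In mPTCL against T, 537 were lower and 72 higher, with 11.4% and 8.27% over all peaks. In mPTCL against NK, 199 were lower and 43 higher, with 3.76% and 6.03% over all peaks. The median log2 difference was -0.58, -0.54 and -0.18 on chromosome 13, and 0.27, 0.26 and 0.30 over all peaks. Against each of NKT, T and NK, 130 peaks were lower and 5 higher (1.95% and 0.813% of all peaks). A total of 88 peaks had all lymphomas below all normal libraries, and 4 had them above (1.18% and 0.956% of all peaks). Since the chromosome was chosen from these contrasts, nothing is read from the counts.

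Summed over the peaks of each gene, 364 of 787 genes were lower and 83 higher in mPTCL than in NKT (20.2% and 25.5% of all genes), 318 and 31 against T (14.7% and 16.2%), and 196 and 21 against NK (10.3% and 11.2%). Against all 3, 135 genes were lower and 2 higher (5.16% and 3.75% of all genes). A total of 78 genes had all lymphomas below all normal libraries and 2 had them above, with 2.85% and 2.31% over all genes. The number of genes higher against all 3 was 0 without NK 1 or without NK 2, and 1 without T 1 or without T 2. Scaling within each chromosome, which sets the chromosome-wide difference to about 0, gave 17 genes higher and 30 lower. The share over all genes under that scaling is not given, so nothing is read from these counts.

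The 2 genes called higher than in all 3 normal groups were Pde8b, which encodes a cyclic AMP phosphodiesterase, and Map1b, which encodes a microtubule-associated protein. Pde8b, at chr13:95024105-95250401 with 3 peaks, had 10.1, 27.3 and 53.6 CPM as the lowest, median and highest lymphoma. It had 0, 0 and 9.48 CPM in NK, 0, 3.14 and 5.91 CPM in NKT and 4.52, 4.34 and 11.7 CPM in T libraries. The groups overlapped only where T 3, at 11.7 CPM, exceeded mPTCL 6, at 10.1 CPM. The log2 difference was 2.92 ± 0.60 (SE) from NKT, 1.91 ± 0.60 from T and 2.90 ± 0.81 from NK, where the 3 NK libraries together held only 6 counts.

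The single Pde8b peak behind most of these counts was intronic, at chr13:95122525-95123025. It had 452 counts over the lymphomas and 2 over the NK libraries, a ratio of scaled counts of 14.2 with a counting interval of 3.92 to 118. Map1b, at chr13:99421464-99516602, rested on 1 intronic peak at chr13:99475511-99476011. Its level was 7.74, 23.8 and 46.4 CPM as the lowest, median and highest lymphoma, against 0, 8.62 and 9.48 CPM in NK, 6.60, 6.16 and 6.53 in NKT and 3.62, 2.17 and 6.77 in T libraries. Only mPTCL 9, at 7.74 CPM, lay within the normal range. The log2 difference was 1.87 ± 0.48 from NKT, 2.39 ± 0.54 from T and 1.92 ± 0.61 from NK. In the separate fit of peaks, which has its own scaling, the same peak was at 1.56 ± 0.47, 2.15 ± 0.53 and 1.97 ± 0.61.

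Of the 5 peaks higher in the lymphomas than in all 3 normal groups, 4 had a mean of at least 10 counts. These were the peaks of Pde8b and Map1b, and peaks given to Gzmk and Gfod1 that the deposited annotation classes as intronic. The Gzmk peak, at chr13:113183244-113183744, had 13.5, 24.5 and 36.8 CPM as the lowest, median and highest lymphoma. It had 0, 12.6 and 6.35 CPM in NK, 1.60, 3.33 and 7.26 in NKT, and 4.26, 1.73 and 2.80 in T libraries, so that all lymphomas were above all normal libraries. The Gfod1 peak, at chr13:43261104-43261604, differed by 1.78 ± 0.52 from NKT, 2.45 ± 0.61 from T and 2.87 ± 0.77 from NK, while Gfod1 as a whole, with 17 peaks, was at -0.54 ± 0.19, 0.25 ± 0.21 and -0.29 ± 0.21.

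Gzma and Gzmk encode granule proteases of cytotoxic lymphocytes and lie next to each other near 113 Mb. Gzma, at chr13:113093824-113100981, had 30.1, 57.9 and 93.1 CPM as the lowest, median and highest lymphoma. It had 22.6, 43.1 and 91.7 CPM in NK, 7.92, 11.7 and 15 CPM in NKT and 12.7, 7.95 and 19.6 CPM in T libraries. All 9 lymphomas were above every NKT and T library, and they overlapped the NK libraries. Gzma was 2.33 ± 0.37 above NKT and 2.13 ± 0.39 above T on the log2 scale, and 0.18 ± 0.36 from NK.

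Between normal cells, where a test applies, Gzma rose in NK by 2.15 ± 0.44 over NKT (edgeR adjusted p = 0.002) and by 1.94 ± 0.46 over T (edgeR adjusted p = 0.013). The Gzma promoter peak that overlaps the printed sequence was not shown to differ, at -0.04 ± 0.66 in NK over NKT (edgeR adjusted p = 0.97). The other promoter peak, at chr13:113101794-113102294, was at 1.72 ± 0.79 and was not called either (edgeR adjusted p = 0.12). The exonic peak of the gene, at chr13:113095279-113095779, was at 3.89 ± 0.94 (adjusted p = 0.0054), and the flanking peak at chr13:113104808-113105308, which is also given to Gm9848, at 3.20 ± 0.73 (adjusted p = 0.0037).

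Gzmk, at chr13:113171630-113180965 with 9 peaks, had 43.7, 81.5 and 136 CPM as the lowest, median and highest lymphoma. NK libraries had 34.9, 81.9 and 42.7 CPM, NKT libraries 33.0, 28 and 42.7 CPM and T libraries 24.4, 30.4 and 33.8 CPM. The lymphomas were above every NKT and T library and overlapped NK. The log2 difference was 1.30 ± 0.31 from NKT, 1.52 ± 0.33 from T and 0.71 ± 0.34 from NK. In the smaller table, Gzmk in mPTCL over NKT was -0.41. Most of the 9 peaks given to Gzmk lie outside these RefSeq coordinates, up to chr13:113227708, and their classes are those of the deposited annotation. The peak at chr13:113211396-113211896 is also given to Esm1. The peaks did not move alike. The peak at chr13:113197912-113198412, annotated as intronic, was at -1.08 ± 0.37 in mPTCL over NKT, while the promoter peak at chr13:113180662-113181162 was at 3.4 ± 0.78. Between normal cells that promoter peak rose by 2.96 ± 0.95 in NK over NKT (edgeR adjusted p = 0.03), and Gzmk as a whole was not called, at 0.60 ± 0.39 (edgeR adjusted p = 0.31).

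The megabase from 113 to 114 Mb, chosen after its values were seen, held 58 peaks. Of these, 25 were higher and 12 lower in mPTCL than in NKT (23.2% and 19.4% of all peaks), 15 and 6 against T (8.27% and 11.4%), and 2 and 0 against NK (6.03% and 3.76%), and nothing is read from these counts. Its summed level was 563, 651 and 1005 CPM as the lowest, median and highest lymphoma, against 552, 651 and 681 CPM in NK, 706, 788 and 838 CPM in NKT and 646, 686 and 667 CPM in T libraries. Without it, the bin from 110 to 115 Mb had a lymphoma median of -0.41. Between normal cells, 13 of the 58 peaks rose and 7 fell in NK over NKT (6.81% and 10.3% of all peaks), and 11 rose and 3 fell in NK over T (2.02% and 2.77%). Cdc20b, related to the cell-cycle gene Cdc20, is beside Gzma and had 82.5, 113 and 188 CPM as the lowest, median and highest lymphoma, against 92.3, 129 and 145 CPM in NK, 42.2, 34.5 and 42.1 in NKT and 39.8, 55.0 and 50.8 in T libraries.

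Only 3 of 71 megabase windows with at least 10 peaks had a lymphoma median above 0. At 31 to 32 Mb, which holds the forkhead genes Foxf2, Foxq1 and Foxc1, it was 1.24, with 8 of 9 lymphomas above 0. The summed level there was 36.4, 115 and 150 CPM as the lowest, median and highest lymphoma, against 66.3, 59.0 and 66.6 CPM in NK, 18.4, 30.3 and 26.6 CPM in NKT and 54.3, 63.2 and 54.2 CPM in T libraries. At 53 to 54 Mb, around Ror2, a Wnt receptor kinase gene, the median was 0.92 with 9 of 9 lymphomas above 0, the normal mean. The groups overlapped there: mPTCL 8, at 83.6 CPM, and mPTCL 9, at 103 CPM, were below T 3, at 121 CPM, and NK 2, at 114 CPM. At 114 to 115 Mb, which holds Itga2 and part of Itga1, it was 0.02, with 5 of 9 above 0. The windows and the genes named from them were chosen after their values were seen.

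Syk, a tyrosine kinase of antigen and NK receptors, was higher in the lymphomas than in NKT and lower than in NK. It had 4.64, 10.3 and 19.4 CPM as the lowest, median and highest lymphoma, against 39.0, 47.4 and 37.9 CPM in NK, 2.64, 3.95 and 3.42 CPM in NKT and 7.23, 2.89 and 5.26 CPM in T libraries. The lymphomas were below every NK library and above every NKT library. The log2 difference was 1.67 ± 0.45 from NKT, 1.12 ± 0.48 from T and -1.90 ± 0.40 from NK. Between normal cells Syk rose in NK by 3.57 ± 0.55 over NKT (edgeR adjusted p = 0.00012) and by 3.02 ± 0.56 over T (edgeR adjusted p = 0.0025). The promoter peak of Syk carried that difference, at 4.91 ± 0.96 in NK over NKT, and the flanking peak did not, at -1.25 ± 1.12.

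Itga1 and Itga2 encode the collagen-binding integrin chains CD49a and CD49b. Itga1 had 43.1, 67.7 and 122 CPM as the lowest, median and highest lymphoma, against 84.1, 86.2 and 128 CPM in NK, 79.2, 105 and 113 CPM in NKT and 32.5, 39.0 and 38.3 CPM in T libraries. It rose by 1.44 ± 0.37 in NK over T (edgeR adjusted p = 0.02) and by 1.44 ± 0.35 in NKT over T (edgeR adjusted p = 0.014), though 5 of its 7 peaks carry another symbol and the second value was -0.89 in the smaller table. Itga2 had 110, 155 and 316 CPM as the lowest, median and highest lymphoma, against 127, 174 and 251 in NK, 166, 165 and 173 in NKT and 128, 151 and 124 in T libraries, and the groups overlapped.

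**Figure D4:**
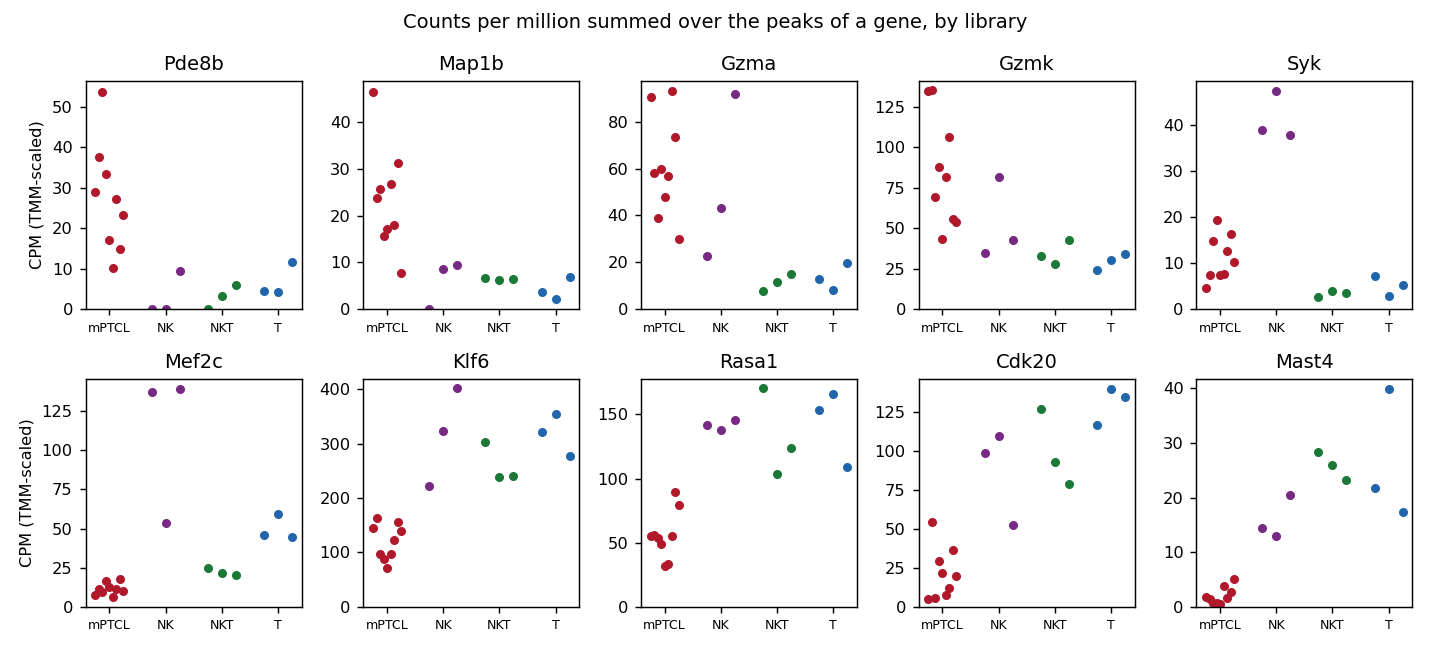
CPM (TMM-scaled, y axis from 0) summed over the peaks of 10 genes for each library, in the groups mPTCL, NK, NKT and T. Pde8b and Map1b are highest in mPTCL libraries, Gzma, Gzmk and Syk sit above NKT libraries in mPTCL, and Mef2c, Klf6, Rasa1, Cdk20 and Mast4 are lower in mPTCL, with the highest mPTCL library of Cdk20 at 54.5 CPM and the lowest NK library at 52.2 CPM.

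Mef2c, a MADS-box factor of lymphoid and muscle development, was among the genes lower in the lymphomas than in all 3 normal groups. It had 6.55, 11.3 and 17.7 CPM as the lowest, median and highest lymphoma, against 137, 53.9 and 139 CPM in NK, 25.1, 21.6 and 20.2 CPM in NKT and 46.1, 59.3 and 44.7 CPM in T libraries. All lymphomas were below all normal libraries. The log2 difference was -0.98 ± 0.28 from NKT, -2.15 ± 0.27 from T and -3.30 ± 0.27 from NK. Among normal cells, Mef2c rose by 2.32 ± 0.35 in NK over NKT (edgeR adjusted p = 0.00011) and by 1.15 ± 0.35 in NK over T (edgeR adjusted p = 0.049), and fell by 1.18 in NKT over T (SE 0.34, edgeR adjusted p = 0.044).

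Of the genes lower than in all 3 groups, Mast4 was first when ranked by the one of its 3 differences that lay nearest 0. It is a microtubule-associated kinase gene with 1 promoter peak, at chr13:102906403-102906903. It had 0.529, 1.53 and 5.16 CPM as the lowest, median and highest lymphoma, against 14.4, 12.9 and 20.5 CPM in NK, 28.4, 25.9 and 23.1 CPM in NKT and 21.7, 39.8 and 17.3 CPM in T libraries. The log2 difference was -3.76 ± 0.44 from NKT, -3.78 ± 0.45 from T and -3.09 ± 0.54 from NK. The medians of chromosome 13 genes in the same comparisons were -0.59, -0.59 and -0.42.

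Cdk20, a cyclin-dependent kinase gene, shares the promoter peak at chr13:64432209-64432709 with 1700015C15Rik. That peak ranged from 1.31 to 27.9 CPM over the lymphomas, against 99.5, 59.0 and 52.3 CPM in NK, 143, 112 and 93.7 CPM in NKT and 121, 155 and 146 CPM in T libraries. It had 27.9, 27.4, 24.1, 16.8 and 14.6 CPM in mPTCL 8, 2, 4, 9 and 5, and 5.37, 2.45, 1.59 and 1.31 CPM in mPTCL 7, 1, 3 and 6, an order that is not that of the chromosome share. The other genes with the lowest values were Gm41077, 2610307P16Rik, Zfp493, Ptpdc1, Mfsd14b, Rsl1 and Zfp729b. Mfsd14b, a transporter-family gene, varied little among lymphomas, from 14.4 to 28.5 CPM, against 65.6, 66.8 and 61.6 CPM in NK, 68.6, 58.9 and 59.1 in NKT and 82.2, 76.7 and 57.9 in T libraries.

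Klf6, a zinc finger transcription factor gene, had 72.2, 123 and 164 CPM as the lowest, median and highest lymphoma, against 221, 323 and 403 CPM in NK, 304, 239 and 241 CPM in NKT and 322, 355 and 277 CPM in T libraries. Rasa1, which encodes a GTPase-activating protein for Ras, had 31.8, 55.1 and 89.7 CPM as the lowest, median and highest lymphoma, against 141, 138 and 145 CPM in NK, 171, 104 and 124 CPM in NKT and 154, 166 and 109 CPM in T libraries. In both genes all lymphomas were below all normal libraries. The log2 differences from NKT, T and NK were -1.13 ± 0.21, -1.41 ± 0.21 and -1.41 ± 0.21 for Klf6 and -1.28 ± 0.22, -1.39 ± 0.23 and -1.39 ± 0.24 for Rasa1. Neither gene was called between normal groups.

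Other transcription factor genes varied more. Sox4, an HMG-box factor of lymphocyte development, had 2.18, 9.46 and 33.4 CPM as the lowest, median and highest lymphoma, against 82.0, 77.6 and 45.8 CPM in NK, 11.2, 19.9 and 24.2 CPM in NKT and 77.7, 33.3 and 62.4 CPM in T libraries. Sox4 and 2610307P16Rik lie in the megabase from 28 to 29 Mb, the lowest of the 71 windows at a lymphoma median of -2.74. Irf4, a factor of activated lymphocytes, differed by -0.90 ± 0.24 from NKT, -0.99 ± 0.24 from T and -0.50 ± 0.28 from NK. Jarid2, a partner of Polycomb repressive complex 2, differed by -1.19 ± 0.18, -0.80 ± 0.18 and -0.62 ± 0.20. Nfil3, a factor needed for NK development, was near 0 in all 3 comparisons (0.20 ± 0.27, 0.07 ± 0.28 and 0.01 ± 0.31).

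Signalling genes showed a similar range. Pik3r1, the regulatory subunit gene of PI 3-kinase, differed by -0.53 ± 0.21 from NKT, 0.09 ± 0.22 from T and 0.21 ± 0.23 from NK. Map3k1, a kinase gene upstream of JNK, differed by -0.88 ± 0.22, -0.21 ± 0.23 and -0.12 ± 0.25, and Il6st, the gp130 receptor gene, by -0.56 ± 0.24, -0.43 ± 0.25 and -0.25 ± 0.28. Dusp22, a phosphatase gene, was at 0.31 ± 0.37, -0.06 ± 0.38 and -1.26 ± 0.38, and rose in NK over NKT by 1.57 ± 0.47 (edgeR adjusted p = 0.026). Ccnb1, the cyclin B1 gene, was at -0.33 ± 0.29, -0.59 ± 0.30 and 0.86 ± 0.41. Tert, the telomerase reverse transcriptase gene, was at 0.05 ± 0.33, -0.42 ± 0.34 and 0.97 ± 0.46.

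Gene groups were described by counts and medians, beside medians of -0.59, -0.59 and -0.42 over all chromosome 13 genes in mPTCL over NKT, T and NK. Over all genes, 25.5% were called higher and 20.2% lower against NKT, 16.2% and 14.7% against T, and 11.2% and 10.3% against NK. These shares stand beside every list that follows, some list counts are near them, and nothing is read from the counts. Of 20 effector and adhesion genes, 2 stood higher and 7 lower against NKT, 4 and 2 against T, and 0 and 2 against NK, with medians of -0.52, -0.26 and -0.24. Ctla2a, a cysteine protease inhibitor gene, was among the lowest, at -1.87 ± 0.60, -1.16 ± 0.65 and -0.31 ± 0.83, and its near-copy Ctla2b was at -1.49 ± 0.68, -0.76 ± 0.75 and -1.38 ± 0.79; reads between them may be split. Of 3 T-cell receptor gamma entries, 0 were called against NKT and NK, and 1, Tcrg-C4, was higher against T, at 1.41 ± 0.37.

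Of 19 kinase and signalling genes, 3 were called higher and 8 lower against NKT, 1 and 8 against T, and 1 and 10 against NK, with medians of -0.53, -0.39 and -0.96. Plk2, a stress-induced kinase gene, was at -1.08 ± 0.49, -1.72 ± 0.49 and -1.71 ± 0.55, and Gprin1, a G protein regulator gene of neurites, at 3.06 ± 0.93, 1.12 ± 0.89 and -0.36 ± 0.89. Of 33 transcription factor and chromatin genes, 5 had higher and 20 lower values than NKT, 1 and 14 against T and 0 and 13 against NK, with medians of -0.65, -0.67 and -0.37. Foxq1 was at 2.97 ± 0.74, 1.41 ± 0.71 and 0.94 ± 0.81, and Id4, an inhibitor of basic helix-loop-helix factors, at 2.45 ± 0.99, 2.20 ± 1.11 and 0.83 ± 1.12.

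Of 24 cell cycle and DNA repair genes, 1 was higher and 14 lower than in NKT, 1 and 10 against T, and 1 and 6 against NK, with medians of -0.56, -0.59 and -0.49. Xrcc4, which encodes a non-homologous end-joining factor, was at -1.21 ± 0.21, -1.38 ± 0.22 and -1.75 ± 0.23, on 1 peak that carries another symbol too. Of 47 genes of histone cluster 1, 0 were called higher and 23 lower against NKT, 0 and 18 against T, and 4 and 5 against NK, with medians of -0.50, -0.55 and -0.41. Histone genes are near-identical copies and their values are uncertain. Hist1h4f was at -1.68 ± 0.34, -1.59 ± 0.35 and -0.96 ± 0.44, Hist1h1d at -0.85 ± 0.23, -0.71 ± 0.24 and -1.17 ± 0.26, and Hist1h3b at 0.32 ± 0.30, 0.65 ± 0.33 and 1.27 ± 0.42. Hist1h2ab had 300 counts over the lymphomas and 2 over the NK libraries, a ratio of scaled counts of 9.13 with a counting interval of 2.51 to 75.8. Of 9 measured genes mainly of other tissues, 2 were higher and 1 lower than in NKT, 0 and 2 against T, and 0 and 2 against NK. In that list Fbp1, a gluconeogenic enzyme gene of liver, was at -1.97 ± 0.30, -1.50 ± 0.32 and -2.06 ± 0.35, and Ly86, a gene of B and myeloid cells, at 2.45 ± 0.94, 2.1 ± 1.06 and 0.01 ± 0.98.

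The group with the lowest medians was the set of 37 genes with Zfp symbols, chosen after their values were seen. Of these, 29 were lower than in NKT, 35 than in T and 22 than in NK, with 0 higher, and the medians were -1.07, -1.64 and -1.10. Of 299 Zfp genes on the other chromosomes, 30 were called higher and 89 lower against NKT, 24 and 72 against T, and 22 and 49 against NK, with medians of -0.27, -0.30 and -0.03. On chromosome 13, 25 of the 37 lie between 65 and 70 Mb, in the bin with the lowest lymphoma median, and 4 between 60 and 65 Mb. Many of them are paralogs of similar sequence, and counts between them are uncertain. The megabase from 67 to 68 Mb held 28 peaks, with a summed level of 295, 426 and 541 CPM as the lowest, median and highest lymphoma, against 734, 961 and 1304 CPM in NK, 1132, 1079 and 1162 CPM in NKT and 1454, 1634 and 1289 CPM in T libraries. All lymphomas were below all normal libraries. Apart from the Zfp genes, the T-cell receptor entries and the genes of other tissues, the list medians in mPTCL over NKT, T and NK differed by -0.54 to 0.33 from the median of all chromosome 13 genes. With scaling within each chromosome, 14 of 24 list medians changed sign, and those of the Zfp genes did not.

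**Figure D5:**
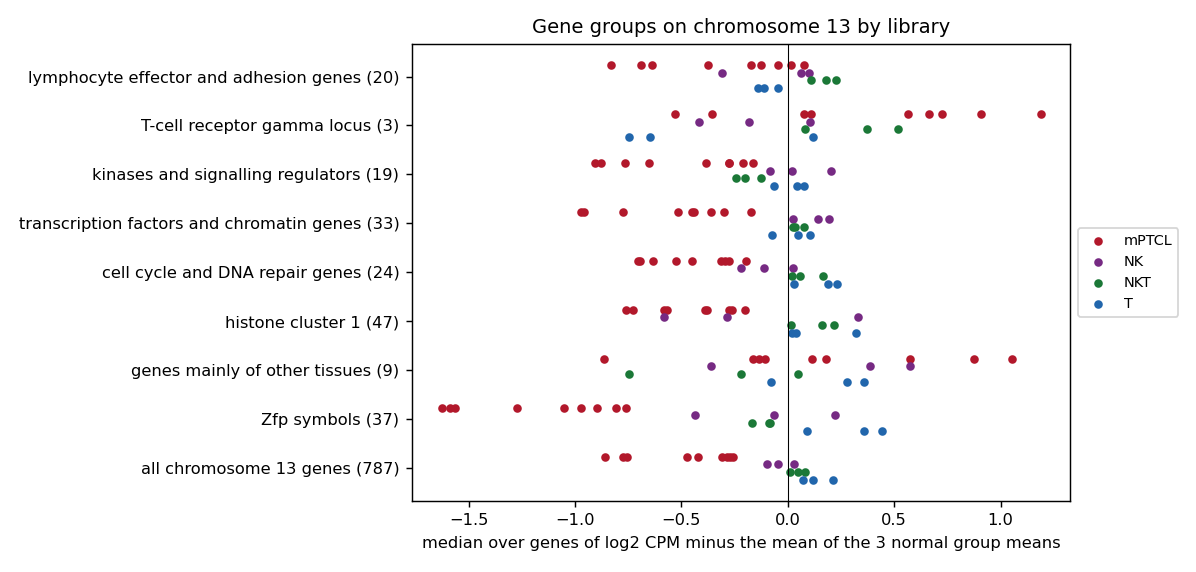
Median over the genes of each list (number of genes in brackets) of log2 CPM minus the mean of the 3 normal group means (x axis), 1 point per library. The Zfp genes run from -1.63 to -0.76 in the 9 mPTCL libraries and from -0.44 to 0.44 in the normal libraries, and all chromosome 13 genes from -0.86 to -0.26 and from -0.10 to 0.21.

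Library by library, the median over all 787 genes was lowest at -0.86, -0.77 and -0.76 for mPTCL 6, 9 and 5. It was -0.47 for mPTCL 4 and -0.42 to -0.26 for the other lymphomas, against -0.10 to 0.21 in normal libraries. For the Zfp genes, mPTCL 5, 6 and 9 were also the lowest, at -1.63, -1.59 and -1.56, and mPTCL 1 followed at -1.27. The effector list was at -0.83, -0.69 and -0.64 in mPTCL 5, 6 and 9, and between -0.37 and 0.07 in the others.

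Differences between normal cells on chromosome 13 were tested in the same edgeR fit. NK over NKT called 45 genes that rose and 36 that fell of 787 (8.5% and 6.31% of all genes), NK over T 23 and 18 (3.29% and 2.2%), and NKT over T 13 and 19 (2.32% and 2.23%). At an unadjusted p under 0.05, 198, 151 and 127 genes passed in either direction. No share over all genes is given at that threshold, so nothing is read from these counts. By peaks, 106 rose and 215 fell in NK over NKT (6.81% and 10.3% of all peaks), 46 and 62 in NK over T (2.02% and 2.77%), and 58 and 39 in NKT over T (3.48% and 1.75%). The NK libraries had the fewest counts, and leaving out 1 library at a time gave 95 to 219 peaks that fell in NK over NKT.

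Of the genes that rose most in NK over NKT, 4930519D14Rik did so by 5.0 ± 0.87 (edgeR adjusted p = 0.00041), Tmem171, a transmembrane protein gene, by 4.65 ± 0.89 (0.0011), BC147527 by 4.52 ± 0.86 (0.001) and Gm34471 by 4.02 ± 0.67 (0.00026). Tmem171 had 28.7, 34.5 and 55.3 CPM in NK, against 2.64, 0.697 and 1.97 CPM in NKT and 10.8, 7.23 and 10.5 CPM in T libraries. Gm34471, near 113.5 Mb, had 34.9, 64.6 and 44.3 CPM in NK, 2.64, 2.21 and 3.73 CPM in NKT and 1.81, 5.79 and 6.02 CPM in T libraries. In both genes the NK libraries lay above every NKT and T library. 1700084D21Rik also rose, by 3.98 ± 1.17 (adjusted p = 0.023), but rested on 40.9 CPM in NK 2 beside 4.10 and 4.74 in NK 1 and NK 3.

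At the other end, the peaks given to both Il9, a type 2 cytokine gene, and Slc25a48, a mitochondrial carrier gene, had 4.10, 0 and 3.16 CPM in NK, against 50.1, 43.2 and 39.3 CPM in NKT and 28.9, 26.8 and 24.1 CPM in T libraries. They fell by 4.11 in NK over NKT (SE 0.55, edgeR adjusted p = 2.3e-05) and by 3.37 in NK over T (SE 0.58, edgeR adjusted p = 0.0011). Of 3 predicted genes that fell in NK over NKT, Gm47586 and Gm47587 each had 2 counts over the NK libraries and Gm47816 had 3. Their ratios of scaled counts, NK over NKT, were 0.0478 (counting interval 0.00577 to 0.174), 0.106 (0.0127 to 0.386) and 0.124 (0.0255 to 0.367).

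In NK over T, Mocs2, a molybdenum cofactor synthesis gene, fell by 2.31 (SE 0.44, edgeR adjusted p = 0.0027), with 16.4, 0 and 19.0 CPM in NK, against 62.4, 64.4 and 58.3 CPM in T libraries. Olfr1364, an olfactory receptor gene, had 0 counts over the NK libraries and 41 over T. It was 4.21-fold lower in NK when 3 counts over the group were put in place of 0. BB123696 had 8 counts over NK and 0 over T, 8.67-fold higher in NK by the same rule. Neither value allows for counting error in the group that had counts, so neither is a lower bound. 9330111N05Rik rose by 4.85 ± 0.79 (edgeR adjusted p = 0.00072), and Zfp935 fell by 2.40 (SE 0.72, edgeR adjusted p = 0.047).

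In NKT over T, Gcnt2, a glycosyltransferase gene of I-branched glycans, rose by 2.96 ± 0.37 (edgeR adjusted p = 3.6e-05), with 83.8, 79.5 and 84.9 CPM in NKT against 7.23, 8.68 and 14.3 CPM in T libraries. Gm31683, which overlaps Gcnt2, rose by 3.35 ± 0.55 (0.0005), and Gm48090 by 3.45 ± 0.75 (0.0066). The lymphomas had 21.7, 32.6 and 44.8 CPM at Gcnt2 as lowest, median and highest, above every T library and below every NKT library. Ccl28, a mucosal chemokine gene, fell in NKT over T by 3.03 (SE 0.50, edgeR adjusted p = 0.0005), with 3.30, 1.98 and 6.74 CPM in NKT against 34.3, 36.9 and 32.0 CPM in T libraries. Mctp1, a calcium-binding membrane protein gene, fell by 2.56 (SE 0.74, edgeR adjusted p = 0.041), and BC147527 by 3.85 (SE 0.83, edgeR adjusted p = 0.0062).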

How the data were processed

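The submitters' processing notes name mm10, MACS2 2.1.2, bedtools and edgeR 3.24.3; the aligner and the rule that chose the peaks of each table are not stated in any source at hand. The authors deposited whole-number counts per peak for 18 libraries in 2 tables of 61224 and 27727 peaks, with symbols and a class per peak. The authors also deposited TMM-scaled log2 CPM per peak, from which no result was taken. Peak coordinates are as deposited, and gene coordinates are RefSeq's (GRCm38.p6). Counts per peak, and their sums per symbol, were fitted with edgeR 4.0.16 (filterByExpr, TMM, quasi-likelihood test) in 1 model of 4 groups. Peaks and genes were scaled and fitted separately, so that their CPM and log2 differences are not on the same scale. p-values were adjusted over all 61220 peaks or 20344 genes tested (Benjamini-Hochberg, threshold 0.05). The procedure was tested on simulated data. Depth ranged from 417107 to 9097014 counts per library. log2 CPM used a prior count of 2.

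The text names 18 set genes, up to 10 genes and 5 peaks highest and lowest against all 3 normal groups (mean of at least 10 counts), the 5 highest and lowest called genes per normal comparison, and the 2 highest and lowest per list. Members and lists were chosen with earlier results of these data known. Alternatives were DESeq2 1.42.0, RLE, library totals, scaling within each chromosome, stricter filters, promoter peaks only, the smaller table, a replicate block and leaving out each library. One gene that the rule names is not reported here.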

Additional observations from a re-analysis of the deposited data

Results flagged for a closer look

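Of 84 sets of 9 lymphoma values examined (74 genes, 9 peaks and the chromosome 13 share), 4, all of them genes, had a lymphoma that stood apart from the other 8 by the gap of the lowest library relative to the whole range; chance gives such a gap in about 1 of 20 groups, so a similar number would be flagged by chance. BC147527 was at a log2 CPM of -0.55 in mPTCL 4, with the next lymphoma at 1.95 and the highest at 4.30. Fbp1 was at 1.27 in mPTCL 9, against 2.87 and 4.01. Gm47816 was at -0.55 in mPTCL 9, against 1.77 and 4.08. Zfp935 was at 1.80 in mPTCL 1, against 3.07 and 4.2. The lowest value of BC147527 and of Gm47816 is that of a library with 0 counts.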

How the results depend on the processing

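The log2 ratio of the chromosome 13 share was -0.58 to -0.51 when each of the 18 libraries was left out in turn (lymphomas left out as an alternative chosen after seeing the data). The lymphoma median was below 0 in 23 of 23 bins without each library in turn, and in 20 of 20 bins with enough peaks in the smaller table, both also chosen after seeing the data. Counts of called peaks and genes moved much more, and the cause was not tested unless stated. Shares over all peaks or genes are given for the main fit only, so the counts below show change between settings and nothing else. Depth limits the NK comparisons most, with a median of 4 to 7 counts per peak.

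In mPTCL over NKT, 200 higher peaks became 405 with DESeq2, 324 with RLE, 411 with scaling within each chromosome, 73 at a mean count of at least 20 (fewer peaks tested) and 52 in the smaller table, and the 741 lower peaks became 475, 453, 288, 433 and 287. In mPTCL over T, the 72 higher became 155 with DESeq2, 194 with scaling within each chromosome and 23 in the smaller table, and the 537 lower became 204 and 243 in the last pair. In mPTCL over NK, the 43 higher became 78 with scaling within each chromosome and 23 in the smaller table, and the 199 lower became 89 with that scaling.

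In NK over NKT, the 106 higher peaks became 253 with DESeq2, 161 with RLE, 41 at the stricter mean count and 56 in the smaller table. The 215 lower became 118 in a fit of the 9 normal libraries, 85 with DESeq2, 62 with RLE, 135 with scaling within each chromosome, 78 with library totals, 44 at the stricter mean count and 28 in the smaller table. In NK over T, the 46 higher became 84 with normal libraries only, 102 with DESeq2 and 77 with scaling within each chromosome, and the 62 lower became 24 with RLE, 27 with library totals, 29 at the stricter mean count and 14 in the smaller table. In NKT over T, the 58 higher became 104 with normal libraries only, 38 at the stricter mean count and 24 in the smaller table, and the 39 lower became 123 with normal libraries only, 110 with DESeq2 and 15 at the stricter mean count.

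Replicate numbers were not taken to pair the libraries, and deviations of same-numbered libraries correlated at -0.0369 to 0.0465. Counting noise lowers such correlations, so a pairing is not excluded. The replicate block was fitted on the 9 normal libraries only. With it, peaks lower in NK than in NKT numbered 90, against 118 in the fit of those libraries without a block. Peaks lower in NKT than in T numbered 70, against 123.

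Leaving out 1 library at a time gave 88 to 269 peaks higher (88 without NKT 2, 132 without NKT 3) and 528 to 759 lower in mPTCL over NKT. In mPTCL over T it gave 40 to 91 higher (45 without T 1, 40 without T 2) and 309 to 556 lower (318 and 309 without the same libraries). In mPTCL over NK it gave 23 to 51 higher (23 without NK 2) and 99 to 211 lower (99 without NK 3). In NK over NKT it gave 54 to 114 higher (54 without NKT 2, 70 without NKT 3) and 95 to 219 lower, with 136 without NK 2, 95 without NK 3, 108, 99 and 106 without NKT 1, 2 and 3, and 138 without T 1 or T 2. In NK over T it gave 17 to 65 higher and 21 to 79 lower. Without NK 2, NK 3, T 1, T 2 and T 3 these were 24, 17, 21, 20 and 21 higher, and 35, 26, 27, 21 and 34 lower. In NKT over T it gave 25 to 60 higher and 13 to 44 lower. Without NKT 1, 2 and 3 and T 1, 2 and 3 these were 36, 28, 32, 25, 25 and 33 higher, and 19, 13, 14, 21, 20 and 20 lower.

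Genes higher in mPTCL than in all 3 normal groups numbered 2, and 0 to 2 when a library was left out. They were 17 with scaling within each chromosome, and 0 from promoter peaks only and in the smaller table. The 135 lower genes became 30 with that scaling, 74 in the smaller table and 93 to 163 when a library was left out.

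With scaling within each chromosome the medians of 14 list comparisons turned above 0: effector genes 0.034, 0.33 and 0.30 over NKT, T and NK; kinases 0.022 over NKT and 0.23 over T; transcription factors 0.16 over NK; cell cycle genes 0.015, 0.012 and 0.048 and histone genes 0.088, 0.061 and 0.13 over NKT, T and NK; and genes of other tissues 0.15 over T and 0.33 over NK. Pik3r1 over NKT became 0.022. In the smaller table the T-cell receptor gamma median over NK became -0.097, Gzmk over NKT -0.41, Itga1 in mPTCL over T -0.14 and in NKT over T -0.89, and Cdc20b over T -0.27 in mPTCL and -0.26 in NK. From promoter peaks only, Irf4 over NKT became 0.039, Jarid2 over NK 0.12, Gcnt2 in mPTCL over NKT 0.13 and Cdc20b in mPTCL over T -0.17. The NK share was 0.180 points above NKT in the smaller table.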
